A study of Danio rerio with 12 samples.

Results

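The genes described here mark the differentiation of neurons and glia. They were chosen by name from a list of 36 symbols that covers the general neuronal programme, the axon and its cytoskeleton, the synapse, transmitter identity, LIM homeodomain factors and glia. Of these names 35 had a row in the count table, and the synaptophysin gene sypa is not analysed here. Because some symbols belong to more than 1 measured copy, the list gave 36 measured genes of the 32105 in the table: 20 were matched by their own symbol, 15 by a symbol that duplicated copies share, and 1, a copy of gad1, by its identifier. Where copies share a symbol, the identifier stands beside it, and the a and b copies cannot be told apart by symbol here.

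RNA from whole wild-type zebrafish (Danio rerio) at 2 days of age was sequenced in 12 libraries. 4 libraries came from animals given synthetic miR-101a (2 ng), 4 from animals given synthetic miR-29a (2 ng) and 4 from unperturbed controls. No mock-treated group is labelled and the route of delivery is not stated, so the act of treatment and the microRNA cannot be told apart. Whole animals were used, and in such bulk RNA fewer cells of a type and less RNA per cell cannot be told apart.

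A newly born neuron switches on RNA-binding proteins of the ELAV family, grows an axon with the help of tubulins, stathmins and GAP43, and fills long axons with neurofilaments. It then builds a release machinery of SNARE proteins, synaptotagmins and synapsins, and makes the enzymes and vesicular transporters of its own transmitter. In the zebrafish embryo of this age primary motor and sensory neurons are already wired, while oligodendrocyte precursors marked by olig2 have not yet built mature myelin. MicroRNAs are small RNAs that, loaded into Argonaute, repress the messenger RNAs they pair with.

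The libraries held 19804199 to 30383374 gene counts. Values are CPM, that is counts scaled to a fixed library total, after TMM scaling, which corrects for composition. The adjusted p-values are from edgeR's quasi-likelihood test with Benjamini-Hochberg adjustment over the 20872 genes tested, unless another test is named. A gene was called at an adjusted p under 0.05, and differences are log2 fold changes with their standard error (SE). Of the 36 genes 35 were tested. The myelin basic protein gene mbpa fell under the count filter, with 1, 1, 2 and 5 counts in the miR-101a libraries, 2, 2, 2 and 3 in the miR-29a libraries and 1, 2, 0 and 2 in the controls.

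1 library stood apart, the third replicate of miR-29a. Its TMM factor was 0.729, against 0.963 to 1.11 in the other 11, and ribosomal protein genes took 15.2% of its counts, against 7.81 to 9.33% elsewhere. Across genes, its deviation from the other miR-29a libraries correlated with gene length at a Spearman rho of -0.396. For the other libraries, the deviation from the rest of their own group gave -0.158 to 0.369. The upper end of that range came from miR-29a replicates 1, 2 and 4, and every miR-101a and control library lay below these. Replicates 1, 2 and 4 were each compared with libraries that included replicate 3, so their values also carry its shift. The part of miR-29a replicate 3 in each result was measured by repeating every test without it, which left 3 miR-29a libraries. Values from both fits are given below for genes called against control in only 1 of them, and for counts.

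The neuron and glia genes moved both ways in that library. In 7 of the 35 tested genes its CPM was under 0.5 of the mean of the other miR-29a libraries, and in 14 it was over 1.5 times that mean. Among the low ones were slc6a5 at 0.111 of that mean, elavl3 and vamp2 both at 0.159, and the slc17a6 copy ENSDARG00000001127 at 0.139. Among the high ones were the isl2 copy ENSDARG00000053499 at 2.49, olig2 at 2.22 and gap43 at 2.06. Over all genes, 22.0% lay under 0.5 and 29.1% over 1.5, so such shifts were also common outside the list. The miR-101a libraries also differed among themselves in the low genes. Replicates 2 and 3 lay below replicates 1 and 4 in 7 of the 7 low genes, against 5 of the other 28. This held for 60.2% of the 4585 genes that were under 0.5 in that miR-29a library, and 24.5% of all genes. Control replicate 3 was the lowest control in 4 of the 7 low genes and 2 of the other 28. It was lowest in 2596 of those 4585 genes and 6332 of all 20872. No label marks these splits, and the low genes were picked from these same data, so the counts only describe them. The cause was not tested.

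In the fit of all 12 libraries, more genes of the list were lower than higher with miR-29a, while with miR-101a the shares were near those of all genes. With miR-29a, 1 of the 35 tested genes rose and 10 fell, while over all genes 29.0% were called, 17.1% higher and 11.9% lower. With miR-101a, 4 rose and 2 fell, against 18.7% of all genes called, 11.7% higher and 6.97% lower. The median log2 fold change of the 35 genes was -0.22 with miR-29a and 0.14 with miR-101a, beside medians of 0.03 and 0.02 over all genes tested. These comparisons share the control libraries, so they are not independent of each other.

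Without miR-29a replicate 3 the biological coefficient of variation fell to 7.72%, against 21.7% with it, and far more genes were called. For miR-29a, 4 of the 35 then rose and 16 fell, beside 52.6% of all genes called (25.8% higher, 26.8% lower). For miR-101a, 11 rose and 6 fell, beside 47.8% (23.7% higher, 24.2% lower). The 11 calls made with miR-29a and the 6 made with miR-101a in all 12 libraries kept their direction and their call. For miR-101a the calls are more numerous though no miR-101a or control library changed, because the libraries share 1 estimate of the spread.

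**Figure D1:**
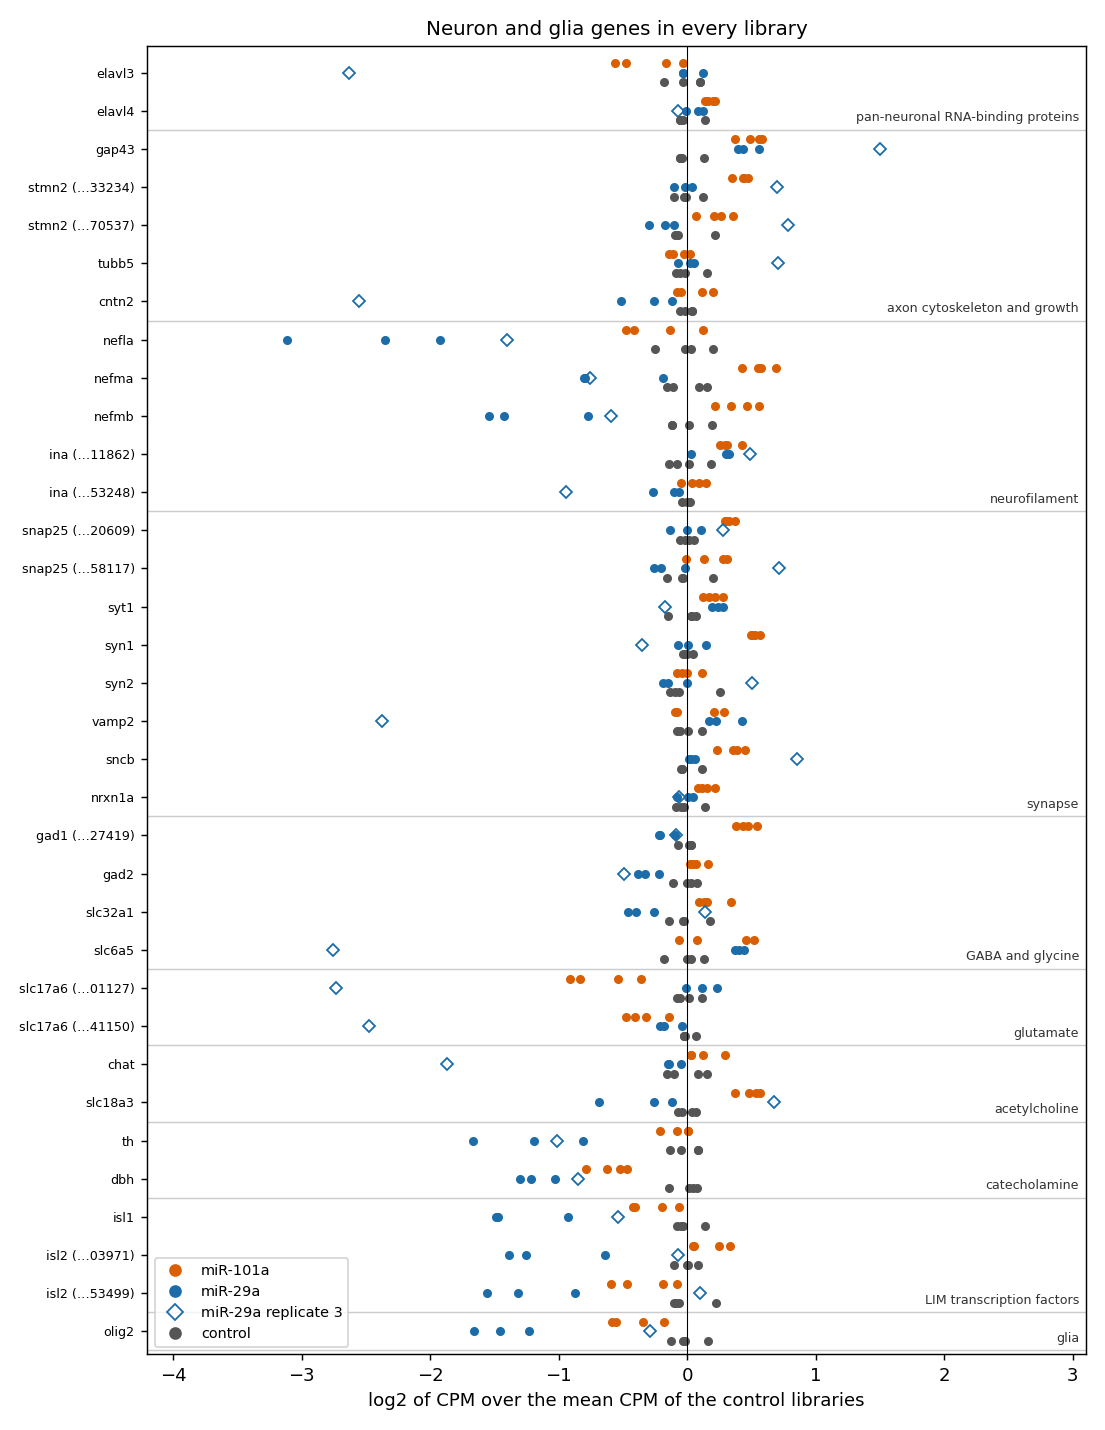
Each library's log2 ratio of CPM to the control mean for 34 of the neuron and glia genes, in order of role, with the miR-101a, miR-29a and control groups side by side and miR-29a replicate 3 as an open diamond. The neurofilament genes nefla, nefma and nefmb, th, dbh and isl1 lie below the controls in each of the 4 miR-29a libraries, while elavl3, vamp2, slc6a5 and both slc17a6 copies drop furthest in replicate 3 among the miR-29a libraries.

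Neurofilaments are the intermediate filaments that fill axons and set their calibre, and nefla among them had the lowest log2 fold change of the 35 genes with miR-29a. 3 of the 5 neurofilament genes fell with miR-29a and the other 2 did not pass the test, while 11.9% of all genes were called lower. Without miR-29a replicate 3, 4 of the 5 fell, beside 26.8% of all genes. For nefla (ENSDARG00000057568), the light chain, CPM was 3.93, 5.95, 4.97 and 4.1 in the miR-101a libraries, 0.632, 1.44, 2.07 and 1.07 in the miR-29a libraries and 4.60, 5.56, 6.28 and 5.39 in the controls. Each miR-29a library lay under the lowest library of either other group, and the miR-101a and control libraries overlapped. The log2 fold change was -2.08 ± 0.28, adjusted p = 2.3e-04 for miR-29a over control and -0.21 ± 0.26, adjusted p = 0.67 for miR-101a over control. At these levels nefla was near the bottom of the list, and its mean RPKM, a level per gene length and library total, was 0.401 with miR-29a and 1.73 in controls.

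The medium chain genes were more abundant and told the miR-29a group apart in the same direction. CPM of nefma (ENSDARG00000021351) was 56.6, 62.5, 57.5 and 52.1 with miR-101a, 22.3, 33.9, 22.9 and 22.2 with miR-29a and 41.2, 35.8, 43.1 and 34.7 in controls, so that the 3 groups did not overlap and followed the order miR-101a, control, miR-29a from high to low. The fall with miR-29a was -0.61 ± 0.14, adjusted p = 0.0063, and the rise with miR-101a 0.56 ± 0.14, adjusted p = 0.015. That rise missed the threshold when control replicate 2 (adjusted p = 0.0504) or control replicate 4 (adjusted p = 0.0517) was left out. For nefmb (ENSDARG00000043697), CPM was 46.2, 53.7, 50.4 and 42.6 with miR-101a, 12.6, 21.4, 24.3 and 13.6 with miR-29a and 36.9, 33.7, 41.8 and 33.7 in controls, again with no overlap between the groups. It fell with miR-29a (-1.03 ± 0.19, adjusted p = 0.0019), and its difference with miR-101a did not pass the test (0.40 ± 0.19, adjusted p = 0.18).

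The internexin genes, which encode another neurofilament subunit, changed less with miR-29a. The ina copy ENSDARG00000053248 had 61.2, 55.6, 58.9 and 63.4 CPM with miR-101a, 47.8, 53.5, 29.9 and 54.8 with miR-29a and 58.4, 57.9, 55.9 and 57.3 in controls. Each miR-29a library lay below each control, and only replicate 3 of miR-29a was far from the rest. The difference of this copy with miR-29a was -0.30 ± 0.15, adjusted p = 0.16 in all 12 libraries and -0.14 ± 0.06, adjusted p = 0.043 without that replicate. The copy ENSDARG00000011862 averaged 2.95 ± 0.155 CPM with miR-101a, 2.89 ± 0.374 with miR-29a and 2.36 ± 0.236 in controls (SD, n = 4 each), and was not called in either comparison. Peripherin (prph), an intermediate filament of peripheral and motor neurons that is not among the 36 genes, fell with miR-29a by 1.05 ± 0.17 on the log2 scale (adjusted p = 8.6e-04). Summed over the 5 genes and divided by elavl4 on the RPKM scale, neurofilament RNA was 1.59 to 1.61 in the miR-101a libraries, 0.931 to 1.18 in the miR-29a libraries and 1.44 to 1.61 in the controls.

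The catecholamine pathway genes th and dbh were both lower with miR-29a. Tyrosine hydroxylase (th, ENSDARG00000030621) makes the precursor of dopamine and noradrenaline. It had 5.12, 4.41, 4.83 and 5.13 CPM with miR-101a, 2.23, 2.92, 2.53 and 1.61 with miR-29a and 4.94, 4.67, 5.41 and 5.43 in controls. The miR-29a libraries lay below all 8 others, and the miR-101a and control ranges overlapped. The log2 fold change was -1.14 ± 0.17, adjusted p = 4.0e-04 for miR-29a and -0.07 ± 0.16, adjusted p = 0.85 for miR-101a.

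Dopamine beta-hydroxylase (dbh, ENSDARG00000069446) turns dopamine into noradrenaline, in the locus coeruleus and in sympathetic and adrenal cells. CPM was 2.70, 2.43, 2.60 and 2.16 in the miR-101a group, 1.52, 1.83, 2.07 and 1.61 in the miR-29a group and 3.76, 3.39, 3.93 and 3.85 in the control group. The groups were fully separated, with controls highest and miR-29a lowest. dbh fell with miR-29a (-1.09 ± 0.14, adjusted p = 1.6e-04) and with miR-101a (-0.59 ± 0.14, adjusted p = 0.011). Between the microRNAs it was higher with miR-101a (0.50 ± 0.14, adjusted p = 0.032), a difference that missed the threshold when miR-101a replicate 1, 2 or 3, miR-29a replicate 1 or 4, or control replicate 1 or 4 was left out, at adjusted p-values of 0.0514 to 0.0932.

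Islet genes encode LIM homeodomain factors of motor neurons and primary sensory neurons; isl1 is also used in the heart and pancreas. isl1 (ENSDARG00000004023) had 62.5, 72.6, 79.5 and 62.0 CPM with miR-101a, 29.5, 43.7, 57.1 and 29.9 with miR-29a and 78.6, 80.3, 91.5 and 81.3 in controls. The 4 miR-29a libraries were the lowest of the 12, replicate 3 being the highest of them. isl1 fell with miR-29a (-1.05 ± 0.19, adjusted p = 0.0015; without replicate 3 -1.27 ± 0.14, adjusted p = 3.0e-05), and with miR-101a its difference was -0.26 ± 0.19, adjusted p = 0.4.

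Both isl2 copies were low in miR-29a replicates 1, 2 and 4. The copy ENSDARG00000003971 had 34.6, 39.8, 42.2 and 34.9 CPM with miR-101a, 12.8, 21.5, 31.9 and 14.1 with miR-29a and 33.6, 33.7, 35.7 and 31.2 in controls. It was called lower with miR-29a in all 12 libraries (-0.75 ± 0.23, adjusted p = 0.032), but replicate 3 overlapped the controls. The call was lost when miR-29a replicate 1 or 4 or any of the 4 control libraries was left out (adjusted p = 0.0549 to 0.0781), and without replicate 3 the difference was -1.06 ± 0.15, adjusted p = 1.0e-04. The copy ENSDARG00000053499 had 13.3, 16.1, 17.3 and 12.2 CPM with miR-101a, 7.38, 9.99, 19.6 and 6.22 with miR-29a and 17.1, 17.6, 21.4 and 17.2 in controls. Its difference with miR-29a was -0.77 ± 0.30, adjusted p = 0.074 in all 12 libraries and -1.23 ± 0.16, adjusted p = 2.6e-05 without replicate 3, so its call rested on leaving that library out. lhx3, a partner of the islet factors in motor neurons and also a pituitary and retinal gene, is not among the 36. It fell with miR-29a by 2.05 ± 0.32 on the log2 scale (adjusted p = 5.7e-04).

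The glial lineage gene olig2 was lower with miR-29a. olig2 (ENSDARG00000040946) is the factor of motor neuron and oligodendrocyte precursors. CPM was 26.2, 30.3, 33.9 and 25.7 with miR-101a, 12.2, 16.4, 31.6 and 14.0 with miR-29a and 38.1, 37.5, 43.0 and 35.2 in controls. All treated libraries lay under the controls, and miR-29a replicate 3 stood among the miR-101a values. The log2 fold change was -1.06 ± 0.25, adjusted p = 0.0074 with miR-29a, or -1.44 ± 0.11, adjusted p = 7.8e-08 without replicate 3. With miR-101a it was -0.41 ± 0.25, adjusted p = 0.31 in all 12 libraries and -0.43 ± 0.10, adjusted p = 0.0023 without that replicate.

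The myelin basic protein gene mbpb is not among the 36 genes and rose with both treatments. It averaged 65.0 ± 2.62 CPM with miR-101a, 84.5 ± 23.9 with miR-29a and 42.1 ± 0.6 in controls (SD, n = 4 each). The log2 fold changes were 0.62 ± 0.15 (adjusted p = 0.012) for miR-101a and 1.0 ± 0.15 (adjusted p = 4.2e-04) for miR-29a. Without miR-29a replicate 3 they were 0.61 (adjusted p = 1.9e-08) and 0.78 (adjusted p = 1.1e-09).

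**Figure D2:**
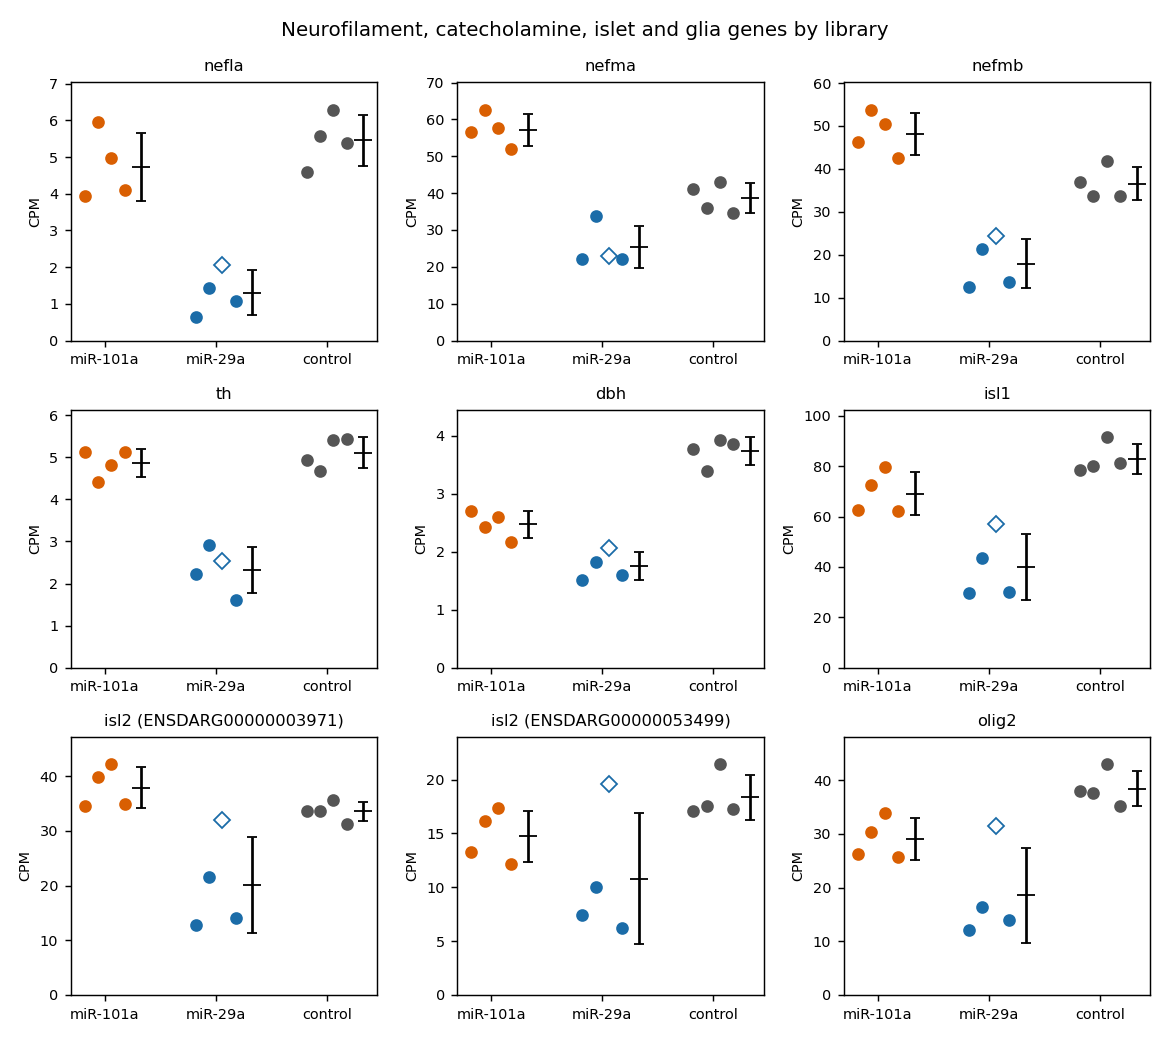
CPM after TMM scaling in each library for nefla, nefma, nefmb, th, dbh, isl1, the isl2 copies and olig2, with the mean and SD of each group (n = 4) and miR-29a replicate 3 as an open diamond. In isl1, both isl2 copies and olig2 that replicate is the highest of its group, and th and dbh stay at or under 2.92 CPM in each miR-29a library.

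The GABA genes divided between the treatments. GABA is made by the glutamate decarboxylases GAD1 and GAD2 and loaded into vesicles, together with glycine, by the transporter encoded by slc32a1. For the gad1 copy ENSDARG00000027419, CPM was 61.0, 59.2, 64.1 and 57.1 with miR-101a, 37.6, 41.1, 41.3 and 37.9 with miR-29a and 41.7, 44.3, 44.8 and 44.7 in controls. It rose with miR-101a (0.46 ± 0.07, adjusted p = 6.2e-04), where the 4 libraries were the highest of all 12. With miR-29a, where each library lay below the controls by a small margin, the difference was -0.15 ± 0.07, adjusted p = 0.11 in all 12 libraries and -0.18 ± 0.06, adjusted p = 0.013 without replicate 3.

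gad2 (ENSDARG00000015537) had 77.2, 70.0, 72.2 and 71.1 CPM with miR-101a, 54.8, 59.2, 49.1 and 53.0 with miR-29a and 63.7, 70.3, 72.8 and 68.7 in controls. The miR-29a libraries were the lowest and the other groups overlapped. It fell with miR-29a (-0.35 ± 0.08, adjusted p = 0.0041) and differed with miR-101a by 0.08 ± 0.07, adjusted p = 0.57. The miR-29a call was lost with a correction for gene length (-0.18, adjusted p = 0.2) and with limma on recomputed RPKM (adjusted p = 0.14 and 0.15 at pseudocounts of 0.5 and 0.1). slc32a1 (ENSDARG00000059775) had 48.0, 48.9, 55.7 and 46.8 CPM with miR-101a, 31.9, 36.7, 48.4 and 33.4 with miR-29a and 42.9, 43.0, 49.6 and 39.8 in controls. Only replicate 3 of miR-29a reached the control range, and the difference with miR-29a was -0.22 ± 0.13, adjusted p = 0.23, or -0.37 ± 0.08, adjusted p = 7.1e-04 without it. The glycine transporter slc6a5 had 38.2, 28.1, 25.4 and 36.6 CPM with miR-101a, 35.2, 34.4, 3.93 and 36.2 with miR-29a and 27.2, 29.2, 23.4 and 26.5 in controls. Replicate 3 of miR-29a was 8.97-fold lower than the mean of the other miR-29a libraries, and slc6a5 passed the test with miR-29a only without it (0.41 ± 0.12, adjusted p = 0.015, against 0.05 ± 0.46, adjusted p = 0.95 with it).

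The vesicular glutamate transporter genes slc17a6, which mark most excitatory neurons of the hindbrain and midbrain, were lower with miR-101a once that replicate was set aside. The copy ENSDARG00000001127 had 11.6, 8.97, 9.47 and 13.1 CPM with miR-101a, 18.3, 16.7, 2.53 and 19.8 with miR-29a and 17.0, 18.2, 16.0 and 16.2 in controls. Each miR-101a library was below each control, and replicates 2 and 3 were the lowest of the 4. The difference with miR-101a was -0.64 ± 0.43, adjusted p = 0.36 in all 12 libraries and -0.65 ± 0.10, adjusted p = 4.3e-05 without miR-29a replicate 3. The copy ENSDARG00000041150 had 18.9, 17.0, 17.8 and 21.3 CPM with miR-101a, 20.8, 20.4, 4.24 and 23.0 with miR-29a and 23.3, 23.1, 23.1 and 24.7 in controls, again with miR-101a below control in all 4 libraries. Its difference was -0.33 ± 0.36, adjusted p = 0.62, or -0.35 ± 0.07, adjusted p = 5.9e-04 without that replicate. Neither copy was called with miR-29a in either fit, where ENSDARG00000001127 differed by -0.23 ± 0.43, adjusted p = 0.73, or 0.12 ± 0.11, adjusted p = 0.37 without replicate 3. As a ratio of RPKM, slc32a1 over both slc17a6 copies was 0.897 to 1.34 in the miR-101a libraries, 0.520 to 0.659 in miR-29a replicates 1, 2 and 4, 4.71 in miR-29a replicate 3 and 0.644 to 0.842 in controls.

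The cholinergic genes sit in motor neurons and in some interneurons, and they were read at low levels. slc18a3 (ENSDARG00000006356), the vesicular acetylcholine transporter, had 13.9, 13.4, 14.2 and 12.4 CPM with miR-101a, 8.01, 8.86, 15.3 and 5.96 with miR-29a and 9.12, 9.84, 9.34 and 10.1 in controls. All miR-101a libraries were above the controls, and in the miR-29a group 3 were below them and replicate 3 above. The differences were 0.49 ± 0.22, adjusted p = 0.16 for miR-101a and -0.01 ± 0.23, adjusted p = 0.97 for miR-29a in all 12 libraries; without replicate 3 they were 0.47 ± 0.10, adjusted p = 7.4e-04 and -0.34 ± 0.11, adjusted p = 0.016. chat, whose enzyme makes acetylcholine, had 13.4, 12.5, 12.5 and 15.1 CPM with miR-101a, 11.1, 11.9, 3.36 and 11.2 with miR-29a and 13.7, 11.4, 13.1 and 11 in controls. It was not called in any comparison, with or without that library. The gene for the enzyme that breaks acetylcholine down, ache, is not among the 36 and rose with miR-101a by 0.75 ± 0.10 (adjusted p = 2.7e-04).

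At the synapse, 2 of 8 genes rose with miR-101a and the other 6 did not pass. That was 25% called, beside 18.7% of all genes (11.7% higher). With miR-29a all 8 missed the threshold, none of them reaching an unadjusted p under 0.05, and DESeq2 called none either. Over all genes 29.0% were called with miR-29a. Without miR-29a replicate 3, 4 of the 8 rose with miR-101a and 2 with miR-29a (50% and 25%), beside 47.8% and 52.6% of all genes called. syn1 (ENSDARG00000060368), the synapsin that tethers vesicles, had 63.5, 62.5, 62.2 and 65.2 CPM with miR-101a, 41.9, 48.8, 34.7 and 44.4 with miR-29a and 43.2, 43.7, 45.6 and 44.0 in controls. The miR-101a libraries stood clear of all others, which overlapped. The log2 fold change was 0.52 ± 0.09, adjusted p = 0.0021 with miR-101a and -0.06 ± 0.09, adjusted p = 0.7 with miR-29a. The snap25 copy ENSDARG00000020609, a SNARE of the presynaptic membrane, had 197, 191, 187 and 188 CPM with miR-101a, 164, 152, 185 and 139 with miR-29a and 147, 154, 159 and 151 in controls. It rose with miR-101a (0.32 ± 0.09, adjusted p = 0.02), a call lost when miR-101a replicate 1 or control replicate 1, 2 or 4 was left out (adjusted p = 0.0535 to 0.0659).

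The other synaptic genes changed less or hung on the separate library. Without miR-29a replicate 3, sncb (beta-synuclein; 0.34, adjusted p = 3.2e-05, against 0.36 ± 0.17, adjusted p = 0.17 in all 12 libraries) and syt1, the calcium sensor of release (0.18, adjusted p = 0.0092, against 0.20 ± 0.10, adjusted p = 0.2), were also higher with miR-101a. syt1 (0.24, adjusted p = 0.002, against 0.15 ± 0.10, adjusted p = 0.3) and vamp2, a vesicle SNARE (0.27, adjusted p = 0.024), were then higher with miR-29a. vamp2 had 21.3, 16.5, 16.3 and 20.1 CPM with miR-101a, 23.4, 20.3, 3.36 and 19.6 with miR-29a and 17.5, 16.8, 18.9 and 16.5 in controls, and in all 12 libraries its difference with miR-29a was -0.06 ± 0.40, adjusted p = 0.93. syn2, nrxn1a and the snap25 copy ENSDARG00000058117 were called against control in neither fit. With miR-29a, sncb differed by 0.29 ± 0.17, adjusted p = 0.23, or 0.03 ± 0.06, adjusted p = 0.67 without replicate 3, and was not called. The weakest control level per length among the synaptic genes was that of nrxn1a, at a mean RPKM of 7.02, and the strongest that of sncb, at 97.6.

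**Figure D3:**
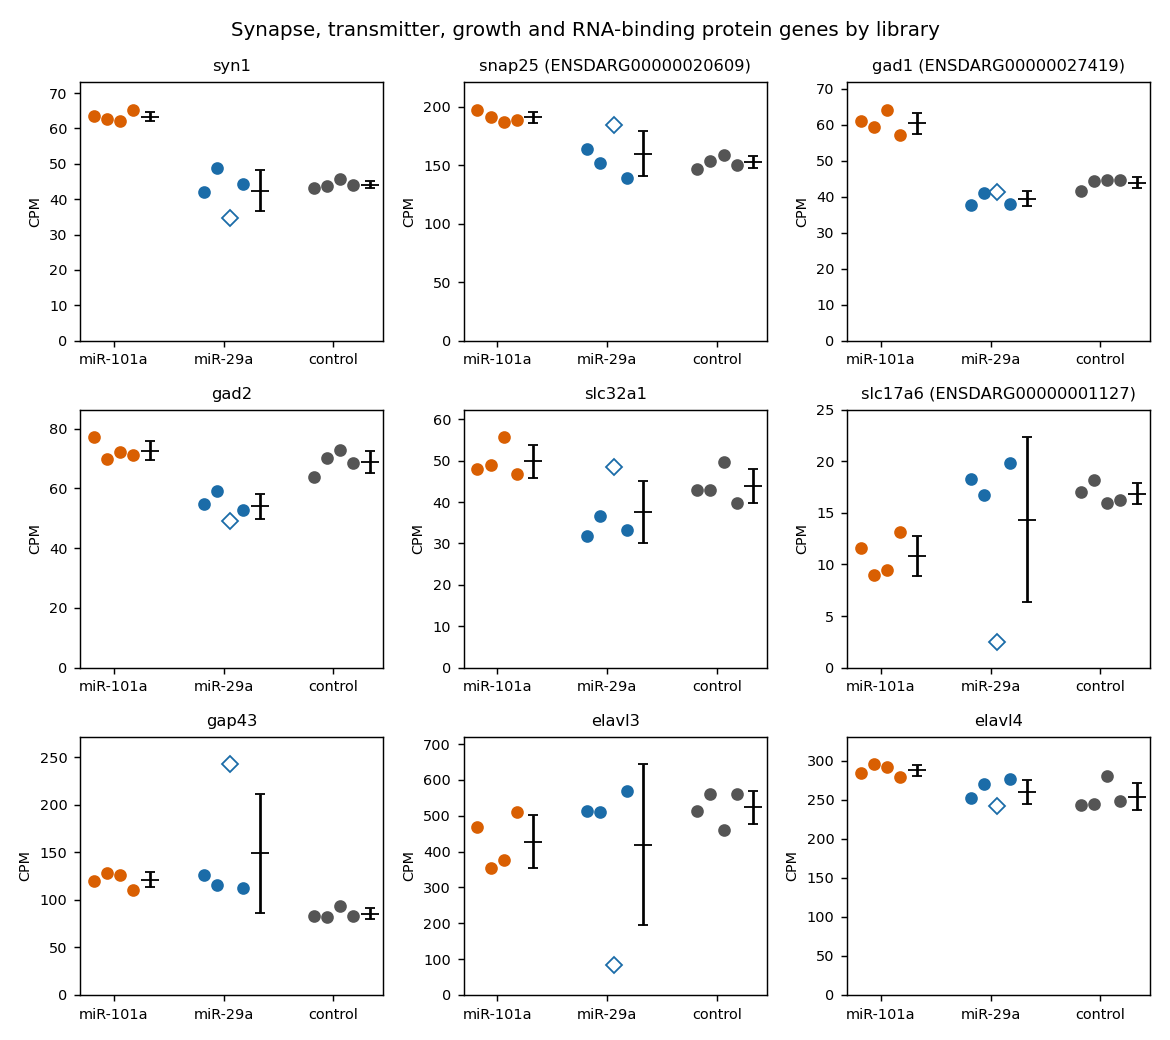
CPM after TMM scaling in each library for syn1, the snap25 copy ENSDARG00000020609, gad1, gad2, slc32a1, the slc17a6 copy ENSDARG00000001127, gap43, elavl3 and elavl4, with the mean and SD of each group (n = 4) and miR-29a replicate 3 as an open diamond. syn1 and gad1 are highest in the miR-101a group, and replicate 3 of miR-29a is far below its group in slc17a6 and elavl3 and far above it in gap43.

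Of the genes for axon growth, gap43 (ENSDARG00000099744), a growth cone protein, was the 1 member that rose with miR-29a. CPM was 120.0, 128, 126 and 110.4 with miR-101a, 126, 115, 243 and 112 with miR-29a and 83.3, 82.4, 93.9 and 82.5 in controls. Every treated library was above every control, and miR-29a replicate 3 was far above the rest. The rise with miR-29a was 0.80 ± 0.21, adjusted p = 0.014 in all 12 libraries and 0.46 ± 0.06, adjusted p = 8.5e-06 without replicate 3, a value more than 1.5 times smaller on the log2 scale. With miR-101a the values were 0.50 ± 0.21, adjusted p = 0.13 and 0.48 ± 0.06, adjusted p = 3.0e-06.

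The stathmin-2 genes, which encode a microtubule regulator of growing axons, were higher with miR-101a in the fit without miR-29a replicate 3 alone. The copy ENSDARG00000033234 had 136, 138, 141 and 129 CPM with miR-101a, 99.9, 104, 164 and 94.0 with miR-29a and 94.0, 101, 110.2 and 99.7 in controls, and all 4 miR-101a libraries exceeded the controls. Its difference with miR-101a was 0.43 ± 0.15, adjusted p = 0.073, or 0.41 ± 0.05, adjusted p = 5.6e-06 without that replicate; for the copy ENSDARG00000070537 the values were 0.23 ± 0.20, adjusted p = 0.52 and 0.21 ± 0.08, adjusted p = 0.034. The adhesion gene cntn2 of early axons had 58.1, 48.0, 49.0 and 54.9 CPM with miR-101a, 35.5, 46.7, 8.64 and 42.4 with miR-29a and 49.9, 51.9, 51.9 and 48.7 in controls, and was called lower with miR-29a without replicate 3 (-0.29 ± 0.08, adjusted p = 0.0069; with it -0.60 ± 0.36, adjusted p = 0.24). The tubulin gene tubb5, the most abundant of the 36 per length, had 692, 751, 772 and 708 CPM with miR-101a, 773, 726, 1243 and 789 with miR-29a and 751, 732, 848 and 716 in controls, and was called in no comparison. With miR-29a its difference was 0.21 ± 0.16, adjusted p = 0.37, or -0.00 ± 0.06, adjusted p = 0.99 without replicate 3, and that of the stmn2 copy ENSDARG00000070537 was 0.12 ± 0.20, adjusted p = 0.7, or -0.19 ± 0.08, adjusted p = 0.065.

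The general neuronal markers elavl3 and elavl4, RNA-binding proteins of nearly all postmitotic neurons, were not called with miR-29a in either fit. elavl3 (ENSDARG00000014420) had 468, 354, 377 and 511 CPM with miR-101a, 512, 511, 84.5 and 569 with miR-29a and 512, 560.0, 461 and 559.7 in controls. Leaving aside replicate 3, the miR-29a libraries lay within or next to the control range, and 2 of the miR-101a libraries lay well below it. The difference with miR-29a was -0.32 ± 0.42, adjusted p = 0.61, or 0.02 ± 0.12, adjusted p = 0.92 without replicate 3, and with miR-101a -0.29 ± 0.42, adjusted p = 0.72, or -0.31 ± 0.11, adjusted p = 0.038. elavl4 (ENSDARG00000045639) had 284, 295, 292 and 279 CPM with miR-101a, 253, 269.7, 242 and 276 with miR-29a and 244, 244, 280.0 and 248 in controls. Its differences were 0.18 ± 0.08, adjusted p = 0.14 with miR-101a and 0.03 ± 0.08, adjusted p = 0.78 with miR-29a, and the miR-101a value passed the test without miR-29a replicate 3 (0.16 ± 0.05, adjusted p = 0.014). Summed over the 36 genes, CPM was 3277 to 3315 in the miR-101a libraries and 3145 to 3368 in the controls, which overlapped. In the miR-29a libraries it was 2963 to 3424, and of these only replicate 3, at 3424, was not below the controls. Without replicate 3 the miR-29a sums were 2963 to 3074, below every library of the other groups.

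**Figure D4:**
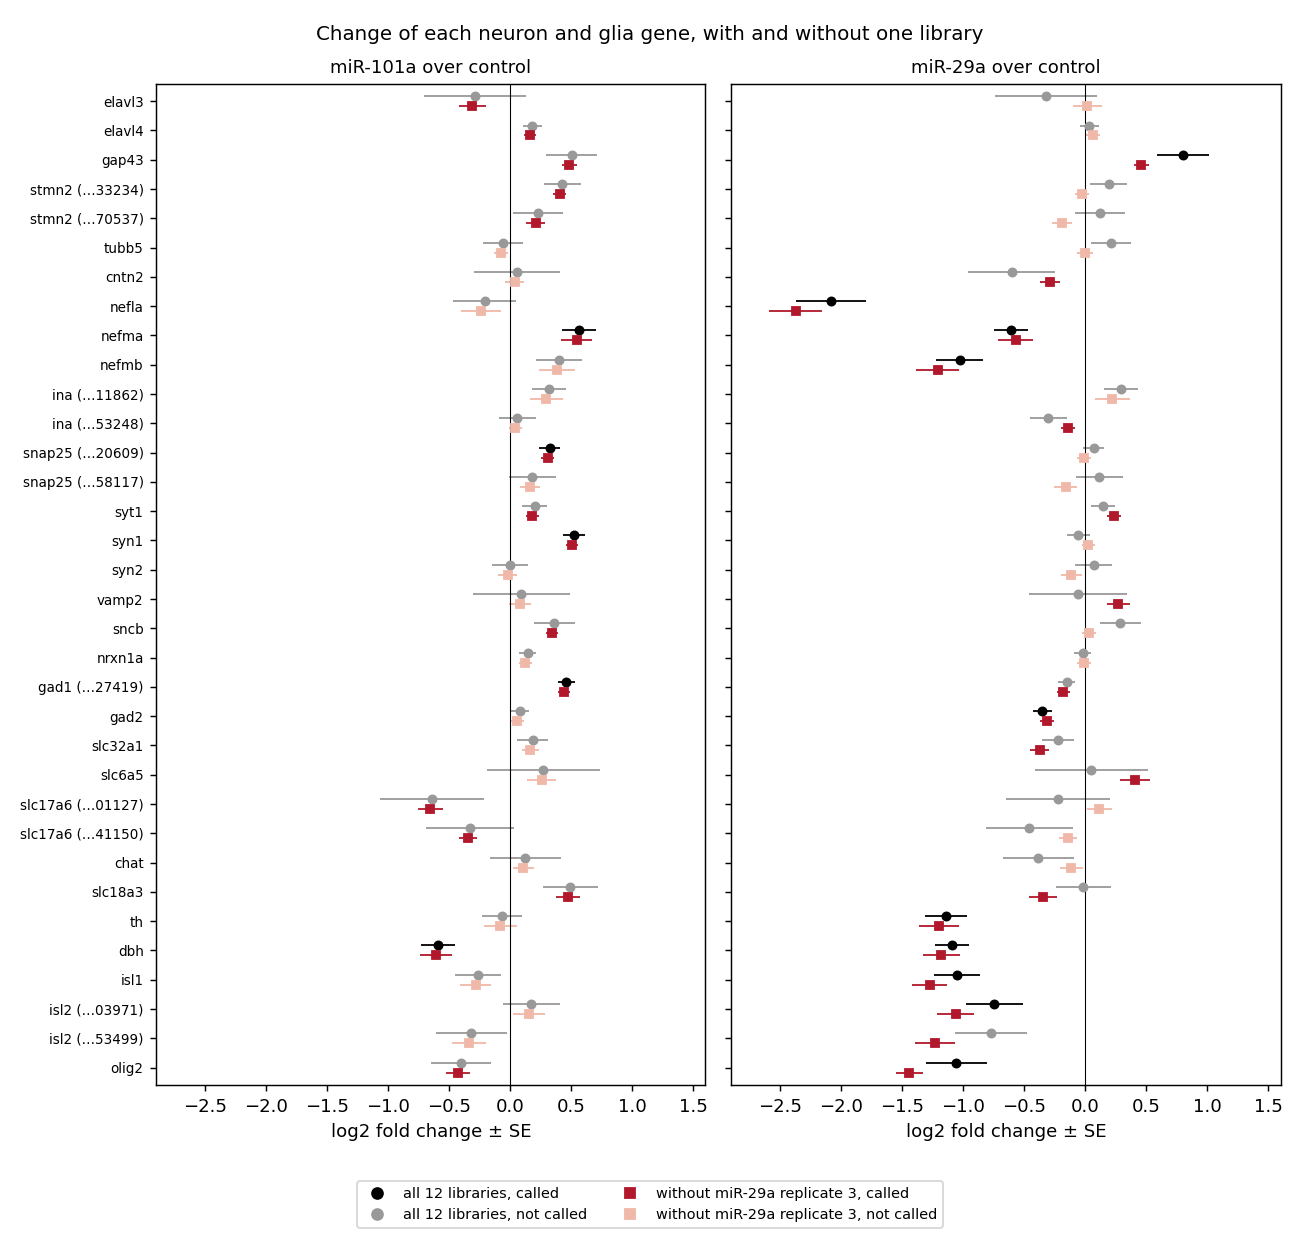
Log2 fold change with its SE for 34 of the tested genes, miR-101a over control in the left panel and miR-29a over control in the right, from all 12 libraries and from the 11 without miR-29a replicate 3. With miR-29a nefla has the lowest value in both fits (-2.08 and -2.37), and the error bars of elavl3, vamp2, slc6a5 and the slc17a6 copies shrink most when that replicate is left out.

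Set directly against each other, the microRNAs differed in 1 direction. 11 of the 35 genes were higher with miR-101a than with miR-29a, beside 17.9% of all genes called (9.23% higher, 8.64% lower). None was called lower by edgeR, where 0 had an unadjusted p under 0.05, and DESeq2 called 0 as well; without miR-29a replicate 3, 21 were higher and 3 lower, beside 43.4% of all genes (22.1% higher, 21.3% lower). The 11 genes were nefla, nefma, nefmb, syn1, gad1, gad2, slc32a1, th, dbh, isl1 and the isl2 copy ENSDARG00000003971. The widest gap was in nefla (1.87 ± 0.29, adjusted p = 0.0011), followed by nefmb (1.43 ± 0.19, adjusted p = 5.6e-04), nefma (1.17 ± 0.14, adjusted p = 2.7e-04) and th (1.07 ± 0.17, adjusted p = 0.0013).

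Of the 4 inhibitory genes 3 were higher with miR-101a, beside 9.23% of all genes, and slc6a5 was not called. Without miR-29a replicate 3 it was again 3 of the 4, beside 22.1% of all genes. gad1 was higher with miR-101a than with miR-29a by 0.61 ± 0.07, adjusted p = 1.5e-04, with no overlap, and gad2 by 0.43 ± 0.08, adjusted p = 0.0024 (the gad2 call was lost with the correction for gene length, at an adjusted p of 0.062). slc32a1 passed by a small margin (0.41 ± 0.13, adjusted p = 0.047) and missed the threshold in 11 of the 12 fits that each left out 1 library, at adjusted p-values of 0.0547 to 0.134; the exception left out miR-29a replicate 3 (0.54 ± 0.08, adjusted p = 3.3e-05). syn1 was higher by 0.58 ± 0.09, adjusted p = 0.0013, and isl1 by 0.79 ± 0.19, adjusted p = 0.013. The isl2 copy was higher by 0.92 ± 0.23, adjusted p = 0.019, a call lost without miR-101a replicate 3 (adjusted p = 0.0543). A further 10 genes were higher with miR-101a in the fit without miR-29a replicate 3: cntn2, sncb, slc18a3, olig2, both stmn2 copies, both snap25 copies, the ina copy ENSDARG00000053248 and the isl2 copy ENSDARG00000053499. Among these the widest differences were in olig2 (1.01 ± 0.11, adjusted p = 6.6e-06, against 0.65 ± 0.25, adjusted p = 0.095 in all 12 libraries), isl2 (0.89 ± 0.16, adjusted p = 6.7e-04, against 0.45 ± 0.30, adjusted p = 0.34) and slc18a3 (0.82 ± 0.11, adjusted p = 1.4e-05, against 0.51 ± 0.22, adjusted p = 0.15). The 3 genes lower with miR-101a than with miR-29a in the fit without miR-29a replicate 3 were elavl3 (-0.33, adjusted p = 0.044) and the slc17a6 copies ENSDARG00000001127 (-0.77, adjusted p = 2.0e-05) and ENSDARG00000041150 (-0.20, adjusted p = 0.039). In all 12 libraries elavl3 and the copy ENSDARG00000041150 had differences of 0.03 and 0.13, of the opposite sign and not called.

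Counted by ranges, 16 of the 35 genes had every miR-101a library above every miR-29a library, where 12.0% of all genes did so (23.6% in either direction). Without miR-29a replicate 3 this held for 24 genes, beside 24.1% of all genes (45.1% in either direction). For miR-29a over control, 1 gene lay wholly above and 13 wholly below, beside 18.4% and 15.1% of all genes. Without replicate 3 the counts were 4 and 18, beside 27.9% and 28.2% of all genes, or 56.1% in either direction. For miR-101a over control, 11 lay wholly above and 5 wholly below, beside 23.3% and 20.5%, or 43.8% in either direction.

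Per length, the 36 genes spanned a wide scale in controls. Mean control RPKM was highest for tubb5 (321), elavl3 (150.2), sncb (97.6), gap43 (79.1) and the stmn2 copy ENSDARG00000070537 (66.2), and lowest for nefla (1.73), dbh (1.6), the ina copy ENSDARG00000011862 (1.25) and mbpa (0.0174). Copies under 1 symbol kept unequal levels: the snap25 copy ENSDARG00000020609 exceeded ENSDARG00000058117 on the RPKM scale by 2.76 to 3.39 times in miR-101a libraries, 2.01 to 3.50 in miR-29a libraries and 2.47 to 2.94 in controls. For isl2, the ratio of ENSDARG00000003971 to ENSDARG00000053499 was 2.12 to 2.49 with miR-101a, above the 1.42 to 1.97 with miR-29a and the 1.45 to 1.71 in controls. The level of th over dbh was 2.82 to 3.67 with miR-101a, 1.55 to 2.48 with miR-29a and 2.03 to 2.19 in controls. Close copies can share reads, and the values of single copies are uncertain to that extent.

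A wider set of 197 tested neural genes outside the list gave the setting for these changes. With miR-29a, 9 rose and 37 fell (median log2 fold change -0.25); with miR-101a, 13 rose and 15 fell (median 0.00). In all 23.4% were called with miR-29a and 14.2% with miR-101a, below the 29.0% and 18.7% of all genes. Without miR-29a replicate 3 the counts were 15 and 82 for miR-29a and 38 and 54 for miR-101a, or 49.2% and 46.7%, against 52.6% and 47.8% of all genes. Of 20 further genes for transmitter enzymes and transporters, 1 rose and 7 fell with miR-29a (median -0.56), and 3 rose and 1 fell with miR-101a (median 0.17); without that replicate the counts were 2 and 13, and 7 and 3. Of 53 further synaptic genes, 1 rose and 4 fell with miR-29a (9.43% called), and 2 rose and 4 fell with miR-101a (11.3%), again below the shares of all genes. Without that replicate 4 rose and 13 fell with miR-29a (32.1%), and 10 rose and 10 fell with miR-101a (37.7%).

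Axonal and cytoskeletal genes were mixed: of 39, 3 rose and 7 fell with miR-29a, and 5 rose with miR-101a while 34 did not pass. That was 25.6% and 12.8% called, beside 29.0% and 18.7% of all genes. In the fit lacking that replicate, 4 rose and 17 fell with miR-29a, and 7 rose and 11 fell with miR-101a. The greater number with miR-101a thus turned to the lower side. The shares called were then 53.8% and 46.2%, beside 52.6% and 47.8% of all genes. uchl1, a neuronal ubiquitin hydrolase, rose with miR-29a by 1.90 ± 0.22 (adjusted p = 7.1e-05). The stathmin gene stmn4 (ENSDARG00000030106) rose with miR-101a (0.77 ± 0.14, adjusted p = 0.0027) and with miR-29a (1.29 ± 0.14, adjusted p = 4.8e-05). The tau-like gene maptb rose with miR-101a (0.47 ± 0.07, adjusted p = 6.0e-04), and the axonal adhesion gene cntn1 fell with miR-29a (-0.97 ± 0.17, adjusted p = 0.0012).

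Neuronal transcription factors were mostly lower where called. In all 12 libraries 34.8% of them were called with miR-29a and 13.0% with miR-101a, beside 29.0% and 18.7% of all genes. Receptors and channels were called less often than all genes, at 13.8% and 10.3%. Without miR-29a replicate 3 the shares were 65.2% and 47.8% for the factors and 20.7% and 41.4% for the receptors, beside 52.6% and 47.8% of all genes. Of 23 neuronal transcription factors, 1 rose and 7 fell with miR-29a, and 3 fell with miR-101a while 20 did not pass; without that replicate the counts were 1 and 14, and 1 and 10. pou4f3, a factor of hair cells and retinal ganglion cells, fell with miR-101a (-1.0 ± 0.24, adjusted p = 0.012) and with miR-29a (-2.17 ± 0.27, adjusted p = 1.2e-04). Its level was low, at a mean of 0.515 CPM with miR-101a, 0.229 with miR-29a and 1.02 in controls. phox2ba, an autonomic factor, rose with miR-29a (0.66 ± 0.19, adjusted p = 0.025). Of 29 receptors and channels, 4 fell with miR-29a while 25 did not pass, and 1 rose and 2 fell with miR-101a; without that replicate 1 rose and 5 fell, and 6 rose and 6 fell. The glycine receptor gene glra4a fell with miR-101a (-0.73 ± 0.18, adjusted p = 0.014) and with miR-29a (-0.94 ± 0.18, adjusted p = 0.0024).

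Among 17 further glial genes, 3 rose and 2 fell with miR-29a, and 2 rose and 1 fell with miR-101a (29.4% and 17.6% called). These shares were near the 29.0% and 18.7% of all genes. Without miR-29a replicate 3 the counts were 3 and 7, and 6 and 5 (58.8% and 64.7%), beside 52.6% and 47.8% of all genes. s100b, a calcium-binding protein of glia, rose with miR-29a by 2.47 ± 0.23 (adjusted p = 1.8e-05), and the glutamate transporter gene slc1a3 (ENSDARG00000043148) fell by 0.91 ± 0.11 (adjusted p = 8.3e-05). mpz, a myelin gene, rose with miR-101a (0.72 ± 0.14, adjusted p = 0.0037) and fell with miR-29a (-0.57 ± 0.14, adjusted p = 0.01). The glutamine synthetase gene glul (ENSDARG00000099776) fell with miR-101a by 1.87 ± 0.22 (adjusted p = 1.8e-04). Of 16 neural progenitor genes, 6 fell with miR-29a while 10 did not pass, and 4 fell with miR-101a while 12 did not pass. That was 37.5% and 25% called, beside 29.0% and 18.7% of all genes. Without that replicate 13 fell with miR-29a and 3 did not pass, and 1 rose and 9 fell with miR-101a. The shares were then 81.25% and 62.5%, beside 52.6% and 47.8% of all genes. The summed CPM of the 16 progenitor genes was 2595 to 2743 with miR-101a, 2035 to 3361 with miR-29a (2035 to 2318 without replicate 3) and 3123 to 3213 in controls.

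**Figure D5:**
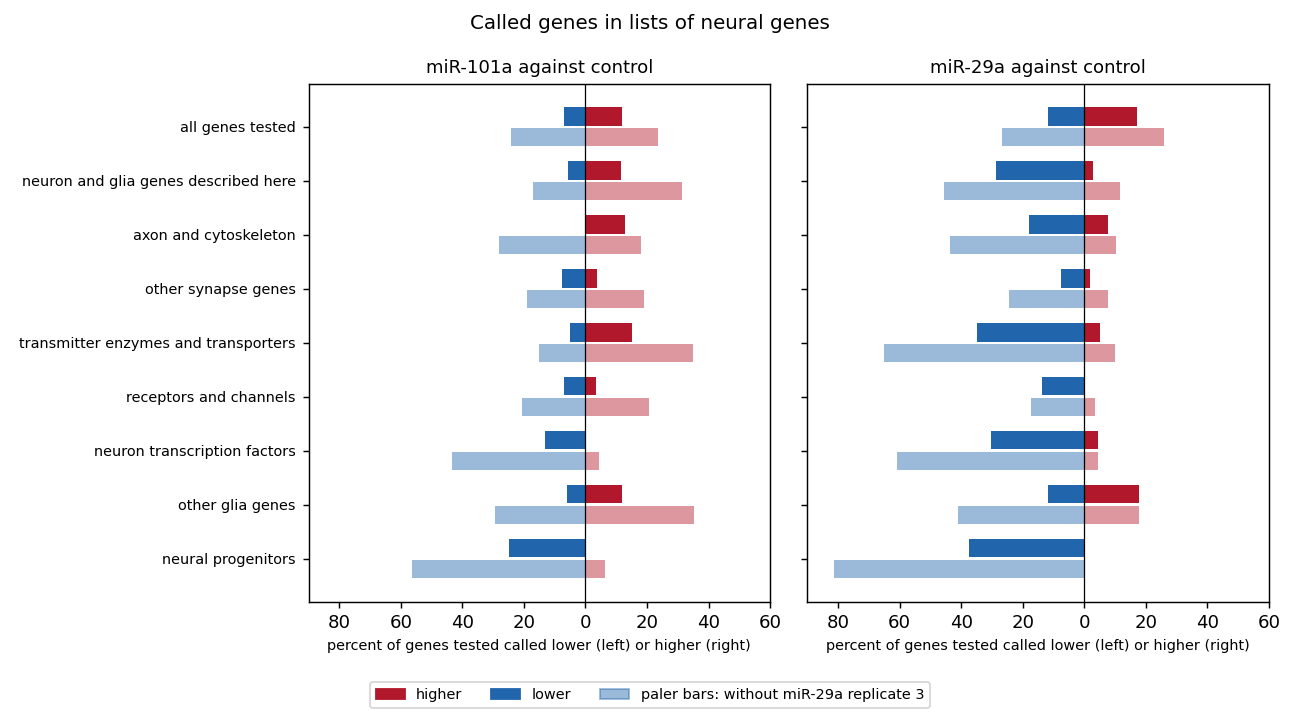
Percent of the tested genes of each neural list that were called higher (right of 0) or lower (left of 0) with miR-101a and with miR-29a, in all 12 libraries and, in paler bars, without miR-29a replicate 3, beside the same for all genes. With miR-29a in all 12 libraries, the lower share exceeds the higher share in the neuron and glia genes (10 lower, 1 higher of 35). The same holds for each other neural list, such as the transmitter list (7 lower, 1 higher of 20), except the other glia genes (2 lower, 3 higher of 17).

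Markers of other cell types in the whole animal were called more or less often than all genes, depending on the type. Over all genes, 29.0% were called with miR-29a and 18.7% with miR-101a. With miR-29a the skeletal muscle (18.2%) and the liver and yolk lists (25%) were below that share. With miR-101a the liver and yolk (12.5%) and the macrophage and neutrophil lists (8.33%) were below it. The remaining lists were above it. With miR-29a, 10 of 10 tested lens genes and 6 of 10 retinal photoreceptor genes fell, and 8 of 13 cartilage and notochord genes fell and 1 rose; 2 of 11 skeletal muscle genes fell and 9 did not pass. Without replicate 3, 10 lens genes, 8 photoreceptor genes and 10 cartilage and notochord genes fell, and 8 muscle genes fell and 1 rose. Summed over the 10 lens genes, CPM was 444 to 577 with miR-101a, 62.1 to 495 with miR-29a and 874 to 1446 in controls. Summed over the 13 measured photoreceptor genes, CPM was 49.8 to 66.5 with miR-101a, 6.49 to 37.9 with miR-29a and 87.1 to 121 in controls. With miR-101a, 4 of 10 lens genes fell, 3 of 10 photoreceptor genes fell and 1 rose, and 2 of 11 muscle genes fell and 1 rose. Of the 8 erythroid genes 6 fell and 1 rose with miR-101a, and 2 fell and 1 rose with miR-29a. Setting that replicate aside, 8 lens genes fell with miR-101a, 4 photoreceptor genes fell and 3 rose, 5 muscle genes fell and 2 rose, and 7 erythroid genes fell and 1 rose; with miR-29a, 4 erythroid genes fell and 3 rose.

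Of the 12 epidermal genes 4 rose with miR-101a and 5 with miR-29a, and the rest did not pass. Of the 13 cartilage and notochord genes 2 rose and 2 fell with miR-101a. Of 8 tested liver and yolk genes 1 fell with miR-101a and 2 rose with miR-29a, and of 12 macrophage and neutrophil genes 1 rose with miR-101a, and 2 rose and 3 fell with miR-29a. Without that replicate, 8 epidermal genes rose with miR-101a, and 6 rose and 4 fell with miR-29a. Of the cartilage and notochord genes 2 then rose and 4 fell with miR-101a. Of the liver and yolk genes 6 fell with miR-101a, and 5 rose and 2 fell with miR-29a, and of the macrophage and neutrophil genes 2 rose and 3 fell with miR-101a, and 3 rose and 8 fell with miR-29a. In that fit every list was above the 52.6% of all genes called with miR-29a. With miR-101a, where 47.8% of all genes were called, 46.2% of the cartilage and notochord genes were called. For the macrophage and neutrophil genes it was 41.7%, and the remaining lists were above all genes. No marker of these lists was at 0 in every library. As background, isl1, th and neurofilament genes are also expressed in retinal neurons, and the part of the eye in the falls given above was not tested.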

How the data were processed

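The authors deposited raw gene counts and RPKM values for the 12 libraries. Libraries were made with TruSeq RNA v2, per the labels' protocols, a kit that does not mark strand, so overlapping genes on opposite strands cannot be told apart. Per the submitters' processing notes the build was GRCz10 and the tools were featureCounts 1.4.6-p4, STAR 2.4.1d and bcl2fastq 1.8.4; the annotation release is not given in the sources used here. In the deposited RPKM, library totals were recycled across genes, a pattern under which only 8.33% of values carry their own library's total. It was checked on 7554 genes by the gene length that each library implied. The median coefficient of variation of that length was 0.0019% with recycled totals and 18.4% with own totals. RPKM was therefore recomputed from the counts. The gene lengths used were inferred from the deposited counts and RPKM with those recycled totals. Recomputed RPKM, ratios on that scale, gene-length offsets and the correlation with length rest on these inferred lengths.

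Counts were filtered with filterByExpr (minimum count 10) and fitted in edgeR 4.0.16 (R 4.3.3) with TMM scaling and robust quasi-likelihood over all 12 libraries. Alternatives were DESeq2 1.42.0, limma 3.58.1 on log2(RPKM + 0.5), other scalings and filters, gene-length offsets, a replicate block and leaving out each library. The replicates are not stated to be separate clutches, so p-values cover only spread between these libraries, possibly technical. The genes and lists were chosen with earlier results of these data known, and support nothing by their choice. The counts cover all 35 tested genes, of which 1 is not reported here by name. The other genes of the list were named, and of the other neural lists up to 2 called genes per direction and comparison, by smallest p. Of the entries of these lists 5 had no symbol match, as had 9 for other cell types.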

Additional observations from a re-analysis of the deposited data

Results flagged for a closer look

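In each group of 4 libraries, the highest and lowest CPM of every tested gene of the list were set against Dixon's 95% critical value, and 18 of 105 groups held a library that stood apart; chance gives about 1 in 20.

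Of the 18, 9 were in miR-29a replicate 3. It was low for elavl3, at 84.5 CPM against 511 to 569 in its group, for slc6a5 at 3.93 against 34.4 to 36.2, for the slc17a6 copy ENSDARG00000041150 at 4.24 against 20.4 to 23.0, and for chat at 3.36 against 11.1 to 11.9. It was high for gap43, at 243 CPM against 112 to 126, for tubb5 at 1243 against 726 to 789, and for sncb at 253 against 141 to 145. The stmn2 copies were also high there, ENSDARG00000033234 at 164 against 94.0 to 104 and ENSDARG00000070537 at 213 against 101 to 115.

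Control replicate 3 was high in 6 genes. Its CPM was 280.0 for elavl4 against 244 to 248 in the other controls, 93.9 for gap43 against 82.4 to 83.3, 39.3 for syn2 against 30.1 to 31.6 and 151 for sncb against 135 to 136. It was 143 for the stmn2 copy ENSDARG00000070537 against 116 to 118, and 21.4 for the isl2 copy ENSDARG00000053499 against 17.1 to 17.6.

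In 3 further cases another library stood apart. nefma was at 33.9 CPM in miR-29a replicate 2, against 22.3 to 22.9 in the remaining 3. gad1 (ENSDARG00000027419) was at 41.7 CPM in control replicate 1, against 44.3 to 44.8, and the slc17a6 copy ENSDARG00000041150 at 24.7 in control replicate 4, against 23.1 to 23.3.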

How the results depend on the processing

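With miR-101a over control, 4 genes of the list were higher in all 12 libraries. The count was 15 with only the 8 libraries compared, 7 with gene-length offsets, 10 with limma on recomputed RPKM at either pseudocount and 0 with limma on the deposited RPKM, where 4 had an unadjusted p under 0.05. Without miR-29a replicate 3 it was 16 with a replicate block, 11 with length offsets and 11 with RLE scaling. Leaving out 1 library at a time gave 11 without that replicate and 2 to 4 without any other. For the 2 lower genes the counts were 7 with 8 libraries and 0 on deposited RPKM (2 unadjusted). They were 8, 7 and 6 in the same 3 settings without that replicate. On leaving out 1 library they were 6 without that replicate and 2 without any other. Over all genes the 2451 higher became 5339 with 8 libraries, 2862 with length offsets, 3263 and 3242 with limma and 808 on deposited RPKM. The 1454 lower became 4716 with 8 libraries, 2193 with length offsets and 527 on deposited RPKM. In the 3 settings without that replicate, 5177, 4847 and 4994 were higher and 5404, 5482 and 5074 lower. Leaving out that replicate alone gave 4989 higher and 5099 lower, and leaving out any other library 1738 to 2475 higher and 931 to 1442 lower.

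With miR-29a over control, 1 gene was higher. This became 4 with limma at either pseudocount, 0 on deposited RPKM (0 unadjusted) and 4 in each of the 3 settings without replicate 3, with 1 to 4 on leaving out 1 library. The 10 lower genes became 16, 17 and 16 in those 3 settings, and 9 to 16. In the direct comparison the 11 higher genes became 7 with 8 libraries and 21 in each of the 3 settings, and 8 to 21. The 0 lower genes became 3, 4 and 3, and 0 to 3. The top of each of these ranges came from leaving out replicate 3. With any other library left out the counts were, in the same order, 1, 9 to 10, 8 to 10 and 0. DESeq2, RLE scaling with all libraries and other filters kept every count within 1.5 times. Those 3 settings were chosen after seeing the data. Over all genes, the 3564 higher with miR-29a became 3986 and 3972 with limma and 1285 on deposited RPKM. In the 3 settings without replicate 3 they became 5358, 5321 and 5497, and the 2481 lower genes 5609, 5967 and 5558. On deposited RPKM the lower genes with miR-29a were 1562. In the direct comparison over all genes, the 1927 higher genes became 941 with 8 libraries, 931 on deposited RPKM and 4461, 4698 and 4582 in those settings. The 1803 lower genes became 950 with 8 libraries, 469 on deposited RPKM and 4460, 4548 and 4562 in those settings.

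The labels do not tie same-numbered libraries of different groups to a shared source, and for that reason the numbers were not taken to pair libraries. Their deviations correlated at -0.207 to 0.406. Own numbers correlated best in 12 of 24 cases, where each case was a choice among the 4 libraries of another group. These values do not settle whether same-numbered libraries share a source. With the replicate number as a block, the counts were 5 higher and 2 lower for miR-101a and 1 and 11 with miR-29a. They were 11 and 0 in the direct comparison, where dbh lost its call (adjusted p = 0.056). Over all genes the counts with this block were 2311 and 1357, 3339 and 2512, and 1876 and 1619 in the same order.

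Changes of sign in which either value passed the threshold occurred only without miR-29a replicate 3. In the order no other change, block, length offsets and RLE scaling, vamp2 with miR-29a was then 0.27, 0.26, 0.26 and 0.28 (log2), elavl3 in the direct comparison -0.33, -0.28, -0.31 and -0.33, and slc17a6 (ENSDARG00000041150) there -0.20, -0.19, -0.20 and -0.21; leaving out 1 library at a time spanned -0.26 to 0.27, -0.33 to 0.21 and -0.20 to 0.30. With length offsets, stmn2 (ENSDARG00000070537) with miR-29a was -0.23, and vamp2 in the direct comparison -0.23. The cause was not tested. Depth limits mbpa, at 0 to 5 counts per library.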
